A study of Rattus norvegicus with 20 samples.

Results

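The comparison described here is the last doubling of dose in a rat liver study of isodecyl diphenyl phosphate (IDDP), an organophosphate ester used as a plasticizer and flame retardant: the arrays of rats given 1054.2 mg/kg body weight against those given 527.1 mg/kg. These were 6 of the 20 arrays of the series, 3 rats at each dose, taken by the dose in their titles, and all 31042 non-control probe sets were compared. The study gave male Harlan Sprague Dawley rats IDDP in corn oil by gavage once a day for 4 days and took the left liver lobe on day 5. The groups were a corn oil vehicle with 5 rats and 66, 132, 263.6, 527.1 and 1054.2 mg/kg with 3 rats each. The 2 doses compared equal 1.35 and 2.7 mmol/kg. No group carried a genetic change, the age of the rats was not given in the sources used here, and each array was 1 rat, so the p-values measure the spread between rats. From each liver, 100 ng of total RNA was labelled for an Affymetrix expression array, and every value is a log2 level, so that 1 unit is a doubling.

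The liver clears foreign esters mainly through hepatocytes, which answer them through nuclear receptors. The receptors CAR and PXR raise cytochromes P450, esterases, transferases and efflux pumps, PPARalpha raises the enzymes of fatty acid breakdown, and NRF2 raises antioxidant and glutathione enzymes when electrophiles accumulate. Hepatocytes also re-enter the cell cycle after some of these stimuli, and their metabolism follows the circadian clock.

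Doubling the dose changed few genes past the test. In limma with Benjamini-Hochberg adjustment over all probe sets, 4 of 31042 passed an adjusted p of 0.05, which is 0.0129%, with 3 higher (0.00966%) and 1 lower (0.00322%) at 1054.2 mg/kg. Akr1b7, Srxn1 and an uncharacterised locus rose, and Dhrs7l1 fell. At an unadjusted p under 0.05 there were 1888 probe sets (6.08%), 888 higher and 1000 lower, where 1552.1 would be expected at that threshold without any difference. The median difference over all probe sets was -0.00008. Against vehicle, by the same fit and adjustment, 520 probe sets (1.68%) differed at 527.1 mg/kg and 1024 (3.30%) at 1054.2 mg/kg. These comparisons share their vehicle arrays and the arrays compared here. The doubling below it, 527.1 against 263.6 mg/kg, gave 0 probe sets past the threshold in limma and 1809 (5.83%) at an unadjusted p under 0.05.

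**Figure D1:**
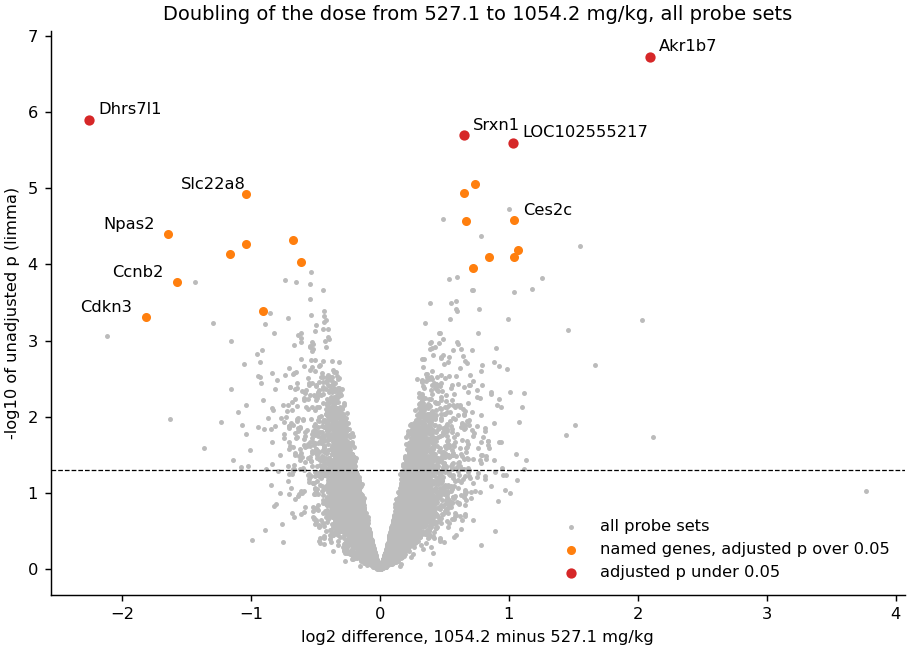
Each point is 1 of 31042 probe sets, with the log2 difference of 1054.2 minus 527.1 mg/kg across and -log10 of the unadjusted limma p upward (dashed line, p of 0.05). The 4 red points passed the adjusted threshold, with Akr1b7 at 2.09 and Dhrs7l1 at -2.25, and the orange points are the other named genes.

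Akr1b7 encodes an aldo-keto reductase that reduces aldehydes from lipid breakdown. Its log2 levels were 5.29, 4.60 and 4.64 at 527.1 mg/kg and 7.46, 6.23 and 7.12 at 1054.2 mg/kg. All 3 rats at the higher dose stood above all 3 at the lower one, and the 527.1 mg/kg mean of 4.84 lay within the vehicle range of 4.39 to 4.92. The gene rose by 2.09 ± 0.27 (SE), or 4.26-fold, with a limma adjusted p of 0.00586. With the 6 arrays fitted alone its limma adjusted p was 0.183, and it lies under the level that removes dim probe sets.

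Dhrs7l1 encodes a short-chain dehydrogenase/reductase-like protein that was among the brighter liver transcripts. Its levels were 12.52, 12.45 and 12.98 at 527.1 mg/kg and 10.17, 11.03 and 9.99 at 1054.2 mg/kg, against a vehicle mean of 12.52 ± 0.22 (SD, n = 5). The lower dose therefore sat at the vehicle level and the higher dose well below it, with no overlap. The difference was -2.25 ± 0.33 (SE), 4.76-fold lower, at a limma adjusted p of 0.0196. Leaving out replicate 1 or 3 at 527.1 mg/kg gave adjusted limma p-values of 0.0823 and 0.104, and leaving out replicate 1 or 3 at 1054.2 mg/kg gave 0.0525 and 0.0786. With the 6 arrays alone it was 0.183.

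Srxn1 encodes sulfiredoxin, which restores over-oxidised peroxiredoxins and is a target of NRF2. The probe set that passed read 5.77, 5.60 and 5.98 at 527.1 mg/kg and 6.39, 6.49 and 6.41 at 1054.2 mg/kg. Like that of Akr1b7, it lies under the level that removes dim probe sets. The 3 rats at the higher dose lay close together and above every rat at the lower dose, and the difference was 0.65 ± 0.10 (SE), 1.57-fold, with a limma adjusted p of 0.0196. A brighter Srxn1 probe set was also higher without overlap, at 9.31, 9.32 and 9.56 against 9.19, 8.93 and 8.97, a difference of 0.37 with a limma adjusted p of 0.718, and the dimmest differed by -0.12. The call was lost in limma without replicate 1 or 2 at 527.1 mg/kg (adjusted p 0.104 and 0.0832), without replicate 2 or 3 at 1054.2 mg/kg (0.0772 and 0.0727) and with the 6 arrays alone (0.587).

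The last of the 4 was LOC102555217, an uncharacterised locus named here after its values were seen. It read 7.49, 7.96 and 7.91 at 527.1 mg/kg and 8.96, 8.74 and 8.77 at 1054.2 mg/kg, a rise of 1.04 ± 0.16 (SE) at a limma adjusted p of 0.0196. Its vehicle mean was 7.91, and the means at 66, 132 and 263.6 mg/kg were 8.37, 8.50 and 8.41, so that the 527.1 mg/kg group was lower than the 3 doses below it. Of the 6 analyses that left out 1 of the compared rats, it passed without replicate 2 of 527.1 mg/kg (adjusted p 0.0308) and without replicate 2 of 1054.2 mg/kg (0.0432), and it did not pass in the other 4.

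Among the genes that were higher at 1054.2 mg/kg without passing, several handle foreign compounds. Ces2c, a carboxylesterase that hydrolyses ester drugs and is known as a CAR target, read 11.35, 11.57 and 11.24 at 527.1 mg/kg and 12.08, 12.36 and 12.84 at 1054.2 mg/kg, from a vehicle mean of 8.83 ± 0.07 (SD, n = 5). Each rat at the higher dose exceeded each at the lower, by 1.04 ± 0.19 (SE) on average, with a limma adjusted p of 0.0752. Without replicate 1 of 1054.2 mg/kg, the rat nearest the lower dose, the difference passed, at 1.22 with a limma adjusted p of 0.0421. Leaving out the nearest rat widens a difference by construction, so such a pass lends the gene no support. The same holds for the refits of Aacs, Ccn1, Slc22a8, Npas2 and Cenpw given below, and their refits without other rats are not given. Abcb1a, the P-glycoprotein efflux pump, read 8.43, 7.79 and 8.38 against 9.01, 9.04 and 8.72, a difference of 0.72 ± 0.15 (SE) with a limma adjusted p of 0.155, and its other probe set differed by 0.79. Sult2a6, a hydroxysteroid sulfotransferase, read 10.64, 11.28 and 11.37 against 11.77, 12.36 and 12.39. That was a difference of 1.07 ± 0.21 (SE), without overlap, at a limma adjusted p of 0.117.

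Lipid enzymes were also in this group. Aacs, the acetoacetyl-CoA synthetase that directs ketone bodies to lipid synthesis, read 6.22, 7.25 and 6.77 at 527.1 mg/kg and 7.60, 7.70 and 8.08 at 1054.2 mg/kg. The lower dose averaged 6.75, below the vehicle mean of 7.33, and the higher dose 7.79, above it. The difference was 1.04 ± 0.21 (SE), with a limma adjusted p of 0.126. It became 0.0308 without replicate 2 of 527.1 mg/kg, the rat nearest the higher dose. Elovl6, which elongates palmitate, differed by 0.67 ± 0.12 (SE) at a limma adjusted p of 0.0752. Its brighter probe set read 6.79, 6.97 and 6.78 against 7.60, 7.59 and 7.69, a difference of 0.78.

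Snx8, a sorting nexin of endosomes, and Slc24a4, a sodium, calcium and potassium exchanger, came closest to the threshold among the higher genes. Snx8 read 5.58, 5.70 and 5.55 against 6.30, 6.54 and 6.21, and Slc24a4 read 5.79, 5.64 and 5.71 against 6.47, 6.37 and 6.23. Both limma adjusted p-values were 0.053. In each the rats at 527.1 mg/kg were the low ones and those at 1054.2 mg/kg were nearer the vehicle means of 6.13 and 6.44. Second probe sets showed smaller differences, 0.23 for Snx8 and 0.10 and 0.07 for Slc24a4. Ccn1, a secreted matrix protein, read 5.25, 5.11 and 5.13 against 6.47, 6.13 and 5.42, a difference of 0.84 ± 0.17 (SE) at a limma adjusted p of 0.126. Without replicate 3 of 1054.2 mg/kg, the lowest of its group, it passed at 1.14 with a limma adjusted p of 0.000753.

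On the lower side the transporter Slc22a8, which takes organic anions into cells, read 11.35, 11.37 and 11.83 at 527.1 mg/kg and 10.19, 10.63 and 10.61 at 1054.2 mg/kg. The groups were a full unit apart, -1.04 ± 0.18 (SE), with a limma adjusted p of 0.053, and its other probe set differed by -0.95. Without replicate 2 of 1054.2 mg/kg, the nearest to the lower dose at 10.63, it passed, at -1.38 with a limma adjusted p of 0.00806. Npas2, a transcription factor of the circadian clock that pairs with Bmal1, read 7.64, 7.88 and 7.65 against 6.13, 7.13 and 4.99. All 3 rats at the higher dose were below the lower dose, but they spanned more than 2 units, and the difference of -1.64 ± 0.31 (SE) had a limma adjusted p of 0.101. Without replicate 2 of 1054.2 mg/kg, the nearest to the lower dose, it was -2.17 with an adjusted p of 0.000302.

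Crym, a thyroid hormone binding protein, read 10.56, 10.52 and 11.11 against 10.17, 10.16 and 9.87, a difference of -0.67 with a limma adjusted p of 0.107. Steap3, an iron reductase, read 8.59, 8.69 and 8.67 against 7.94, 8.31 and 7.85, a difference of -0.61 with a limma adjusted p of 0.137. Both were already below the vehicle means of 10.99 and 8.95 at 527.1 mg/kg and lay further below at 1054.2 mg/kg. Mrpl52, a mitochondrial ribosomal protein, differed by -0.91 in one probe set and by 0.08 in the other. Cenpw, Pttg1, Ccnb2 and Cdkn3, which make up the rest of the named lower genes, are cell division genes and are described with their group.

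The 20 named genes fell into 4 patterns against the vehicle range, by group means and as a description of genes chosen on this difference. Akr1b7, Srxn1, Elovl6, Ccn1 and Dhrs7l1 (5 genes) were within the vehicle range at 527.1 mg/kg and outside it at 1054.2 mg/kg. Ces2c, Sult2a6, Abcb1a, Slc22a8, Npas2, Crym and Steap3 (7 genes) were outside at both doses and farther out at the higher one. Slc24a4, Cenpw, Pttg1, Ccnb2 and Cdkn3 (5 genes) were outside at 527.1 mg/kg and back within the range at 1054.2 mg/kg. For Pttg1 this rested on vehicle replicate 5, its highest vehicle rat at 7.77. Snx8, Aacs and Mrpl52 (3 genes) lay outside on opposite sides at the 2 doses. These patterns are those of the probe sets named above, and other probe sets of Srxn1, Elovl6, Snx8, Mrpl52, Cenpw and Slc24a4 gave other patterns. The brighter probe sets of Snx8 and Mrpl52 averaged within their vehicle ranges at both doses. The brightest of Srxn1 averaged 9.03 at 527.1 mg/kg, above the highest vehicle rat at 8.72, and so was outside at both doses, and the brighter of Elovl6 averaged 6.85 and 7.63, outside a vehicle range of 6.98 to 7.45 on opposite sides.

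**Figure D2:**
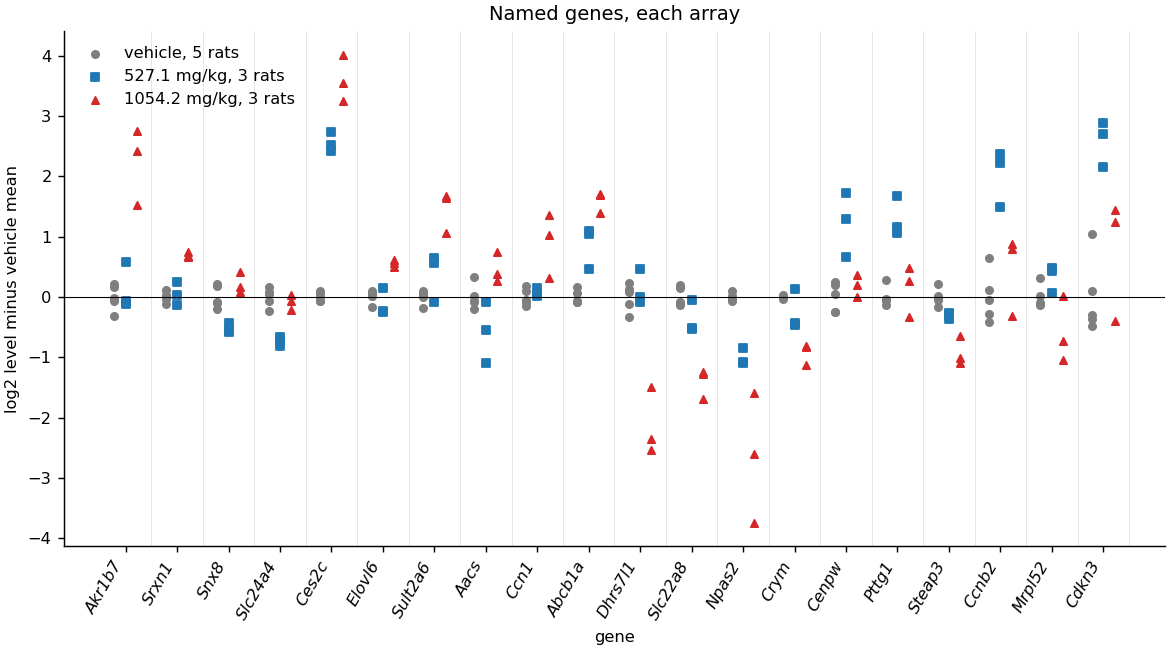
The log2 level minus the vehicle mean is plotted for the 20 named genes in 5 vehicle rats (circles), 3 rats at 527.1 mg/kg (squares) and 3 rats at 1054.2 mg/kg (triangles). In every gene the squares and triangles do not overlap, which the choice of genes required, while their place against the vehicle circles differs from gene to gene.

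**Figure D3:**
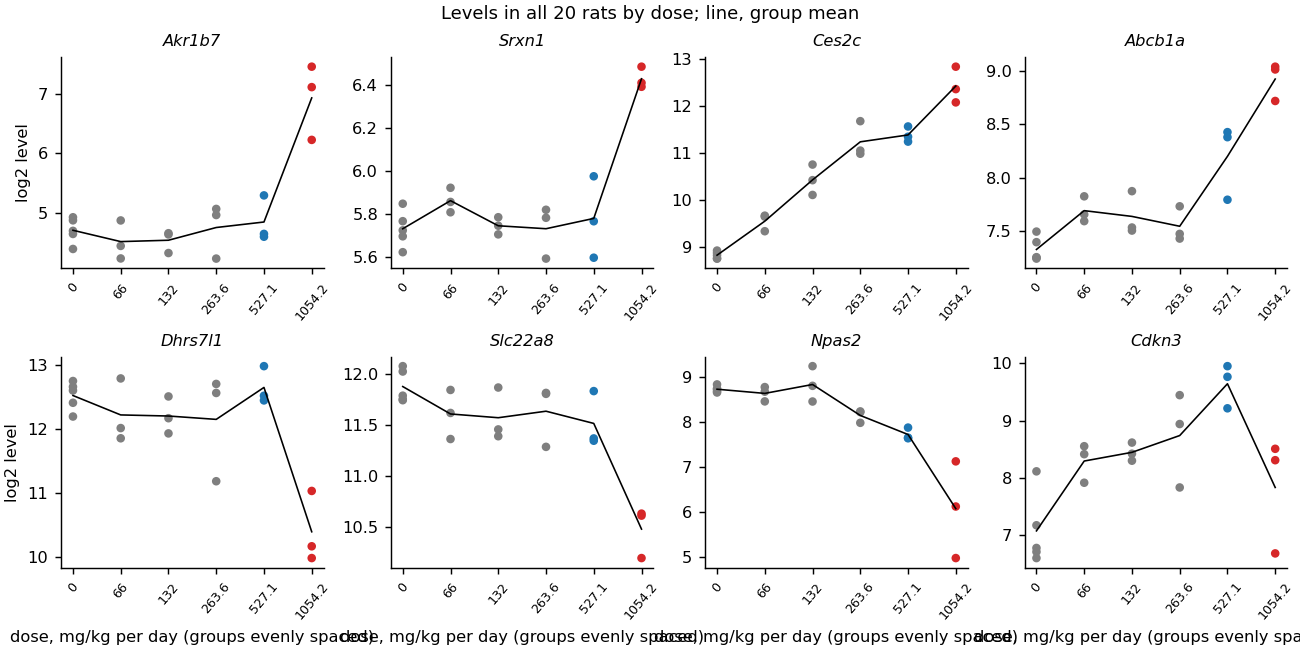
The log2 levels of 8 named genes are shown in all 20 rats by daily dose in mg/kg, with 0 for vehicle and a line through group means (527.1 mg/kg blue, 1054.2 mg/kg red). Akr1b7 and Dhrs7l1 left the level of the other groups at 1054.2 mg/kg, Ces2c was higher at every dose than in vehicle, and Cdkn3 had its highest mean, 9.64, at 527.1 mg/kg.

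The cell division genes were the gene list with the lowest median. Cyclins and the kinase Cdk1 drive entry into mitosis, centromere and spindle proteins such as Cenpw and Cenpe attach and move chromosomes, and securin (Pttg1) and Cdc20 control their separation. Of 34 mitosis and G2/M genes measured, 0 passed the adjusted threshold in limma, and over all lists only Akr1b7 and Dhrs7l1 did. At an unadjusted p under 0.05, 23 of the 34 were lower and 0 higher at 1054.2 mg/kg, beside 3.72% lower and 2.66% higher of 14217 genes taken by 1 probe set each. The list's median difference was -0.64, beside -0.01 over all genes, and 31 of 34 were lower. In 18 of 34 all rats at 1054.2 mg/kg lay below all rats at 527.1 mg/kg, beside 6.70% of all genes.

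Ccnb2, cyclin B2, had the smallest p of the list. It read 9.15, 8.27 and 9.01 at 527.1 mg/kg and 6.48, 7.67 and 7.58 at 1054.2 mg/kg, around a vehicle mean of 6.79 ± 0.41 (SD, n = 5). The difference was -1.57 ± 0.34 (SE) with a limma adjusted p of 0.178. Cdkn3, a phosphatase of cyclin-dependent kinases, read 9.95, 9.21 and 9.77 against 6.67, 8.31 and 8.50, a difference of -1.82 ± 0.44 (SE) with a limma adjusted p of 0.311. In both, replicate 1 at 1054.2 mg/kg was at the vehicle level and the other rats of that dose lay between it and the lower dose. Pttg1 read 8.65, 8.56 and 9.17 against 7.17, 7.76 and 7.97, a difference of -1.16 with a limma adjusted p of 0.125. Cenpw, which belongs to no list, read 6.08, 5.45 and 6.50 against 4.79, 4.99 and 5.15, a difference of -1.04 with a limma adjusted p of 0.111. It passed without replicate 2 of 527.1 mg/kg, its rat nearest the higher dose, at -1.31 with a limma adjusted p of 0.0230.

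Further members, named after their values were seen, also had replicate 1 of 1054.2 mg/kg as the lowest rat. Kif20a, a mitotic kinesin, read 8.74, 8.09 and 8.42 against 6.21, 7.75 and 7.83. Mki67, the Ki-67 proliferation marker, read 7.71, 6.60 and 7.53 against 5.46, 6.81 and 6.36, with overlap. Cdk1 read 8.76, 7.67 and 8.51 against 6.10, 7.93 and 7.90, also with overlap. Top2a, Bub1b and Melk differed by -0.41, 0.06 and 0.01, each with overlap.

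The size of the difference depended on 1 rat. Replicate 1 of 1054.2 mg/kg held the lowest value of the 6 arrays in 33 of 34 members, and in 32 of 34 it was at or below the highest vehicle rat, against 6 of 34 for replicate 2 and 2 of 34 for replicate 3. Averaged over the list, the 3 rats at 1054.2 mg/kg stood at -0.10, 0.88 and 0.80 from the vehicle mean and the 3 at 527.1 mg/kg at 1.42, 0.91 and 1.22. Without replicate 1 of 1054.2 mg/kg the lower members at an unadjusted p under 0.05 were 8 of 34 and the median was -0.35, and without replicate 1 of 527.1 mg/kg they were 12 of 34 with a median of -0.55. Weighting the arrays by their spread gave 12 lower, of which 2 passed, and a median of -0.39. In that weighted fit 354 of all 31042 probe sets were lower past the adjusted threshold. The share of all genes in each refit without 1 rat is not given, here or for the lists below.

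Against vehicle, 27 of the 34 rose at 527.1 mg/kg, beside 1.96% of all genes, and 2 of 34 at 1054.2 mg/kg, beside 2.69%, by limma with the same adjustment. Averaged over its members, the list stood 0.36, 0.50, 0.75, 1.18 and 0.53 above vehicle at 66, 132, 263.6, 527.1 and 1054.2 mg/kg. The change of slope at 527.1 mg/kg, which is the last difference minus the one before it, was tested in the same fit: 0 probe sets passed in limma, 1474 (4.75%) had an unadjusted p under 0.05, and the list's median was -1.09. Of 29 S phase genes, which copy DNA, 1 was lower at an unadjusted p under 0.05 (3.72% of all genes) and the median was -0.02. That gene, the thymidine kinase Tk1, read 9.08, 8.58 and 8.71 against 8.07, 8.27 and 8.52.

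**Figure D4:**
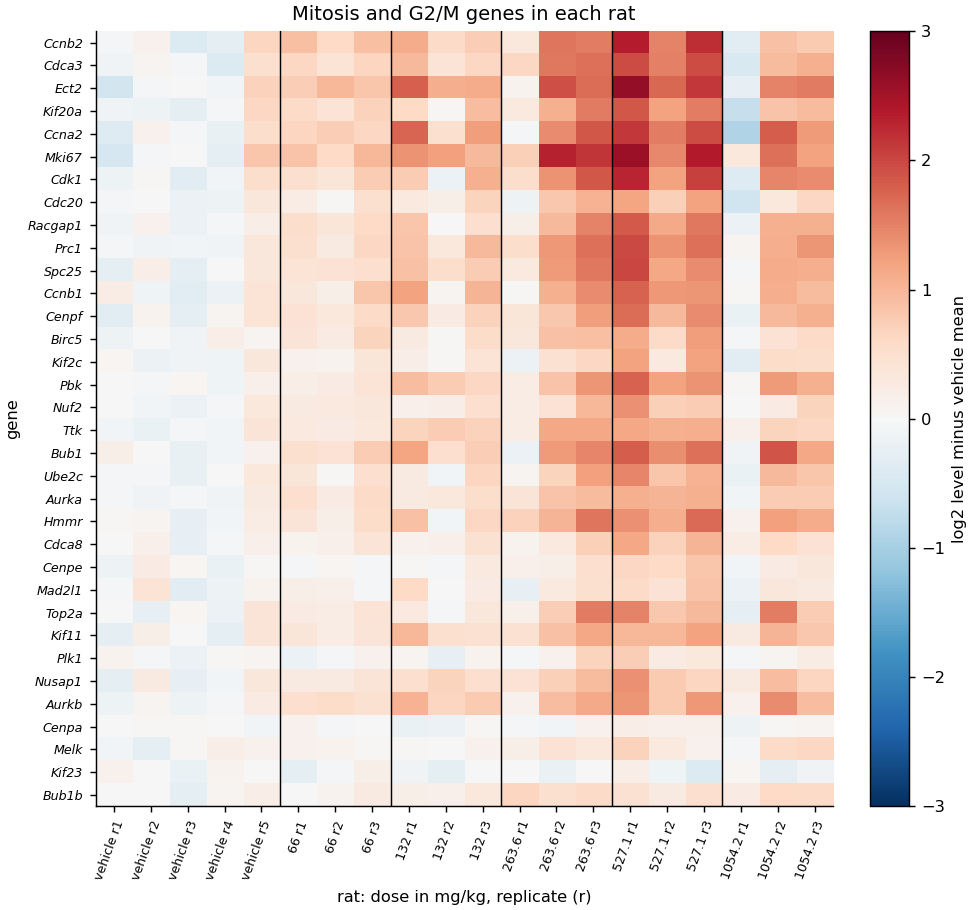
Each row is 1 of 34 mitosis and G2/M genes and each column 1 of 20 rats by dose, coloured by log2 level minus the vehicle mean (red higher, blue lower). The 527.1 mg/kg columns are the reddest as a block, and the first 1054.2 mg/kg column lies near the vehicle colours, with a list mean of -0.10.

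The promoters of Ccnb2, Pttg1 and Cdkn3 are shown because these 3 had the largest differences among the division genes named by the rule. Each is 300 bases, 250 before and 50 after the RefSeq start on the gene's strand, in build GRCr8, written 5′ to 3′, with capitals marking CCAAT or its reverse complement ATTGG. The CCAAT box is known as the site of the factor NF-Y and occurs in many promoters of late cell cycle genes. Ccnb2 lies at chr8:79981609-79981908 on the minus strand, Pttg1 at chr10:28406277-28406576 on the minus strand and Cdkn3 at chr15:22502136-22502435 on the plus strand.
Ccnb2: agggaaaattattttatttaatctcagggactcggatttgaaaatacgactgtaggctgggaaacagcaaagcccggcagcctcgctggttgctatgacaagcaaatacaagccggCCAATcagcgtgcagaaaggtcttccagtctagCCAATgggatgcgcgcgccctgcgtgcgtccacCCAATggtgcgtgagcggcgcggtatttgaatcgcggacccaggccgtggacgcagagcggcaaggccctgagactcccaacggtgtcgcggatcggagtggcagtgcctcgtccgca
Pttg1: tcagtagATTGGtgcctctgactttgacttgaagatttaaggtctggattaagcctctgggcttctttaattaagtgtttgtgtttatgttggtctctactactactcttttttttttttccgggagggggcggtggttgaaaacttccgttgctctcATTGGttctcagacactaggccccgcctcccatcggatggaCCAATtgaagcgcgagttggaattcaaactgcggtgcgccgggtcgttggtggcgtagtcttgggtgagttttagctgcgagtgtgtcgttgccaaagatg
Cdkn3: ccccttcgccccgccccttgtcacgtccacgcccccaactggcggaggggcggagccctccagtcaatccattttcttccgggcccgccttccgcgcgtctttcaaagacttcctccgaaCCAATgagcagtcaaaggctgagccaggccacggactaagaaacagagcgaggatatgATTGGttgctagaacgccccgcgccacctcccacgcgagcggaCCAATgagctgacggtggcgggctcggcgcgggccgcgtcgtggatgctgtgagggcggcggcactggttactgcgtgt
Each of the 3 windows held 3 matches. Of the 29 list members found in the promoter table, 22 (75.9%) held at least 1 CCAAT box on either strand, beside 37.5% of all 33469 promoters of that length, and 20 (69.0%) held the CHR element TTTGAA of cell cycle promoters, beside 18.3%. Both motifs were chosen after the values were seen, and a match describes letters in the window and no binding. E-boxes (CACGTG) were in 1 of the 29, beside 6.42% of all promoters.

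NRF2 target genes were the list with the highest median. They supply glutathione, reduce quinones and export conjugates. Of 27 measured, 0 passed in limma at the probe sets used for the lists, 13 were higher (2.66% of all genes) and 0 lower (3.72%) at an unadjusted p under 0.05, 10 were higher without overlap (4.00% of all genes), and the median was 0.33. Gclc, the catalytic subunit that limits glutathione synthesis, read 10.42, 10.18 and 10.54 at 527.1 mg/kg and 10.94, 10.70 and 11.28 at 1054.2 mg/kg, a difference of 0.60 ± 0.14 (SE) with a limma adjusted p of 0.284. The groups did not overlap, and its vehicle mean was 10.08.

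Other NRF2 targets, named after their values were seen, had replicate 3 at 1054.2 mg/kg as the highest rat. Hmox1, which degrades haem, read 9.47, 9.62 and 9.30 against 9.76, 10.36 and 11.04. Slc7a11, the cystine carrier, read 6.33, 5.59 and 6.25 against 6.53, 6.34 and 7.83. Nqo1, a quinone reductase, read 9.55, 9.09 and 9.48 against 9.53, 9.65 and 10.41, with overlap. Averaged over the list, the rats at 1054.2 mg/kg stood 0.72, 0.75 and 1.10 above vehicle and those at 527.1 mg/kg 0.60, 0.39 and 0.56. Without replicate 3 of 1054.2 mg/kg, 4 of 27 were higher at an unadjusted p under 0.05, and without replicate 2 of 527.1 mg/kg 8 of 27. With arrays weighted, 12 of 27 passed, beside 656 of all 31042 probe sets, 302 of them higher. Replicate 3 of 1054.2 mg/kg then carried a weight of 6.72, against 0.54 and 0.45 for the other rats of its dose, so that fit leans on 1 rat.

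CAR and PXR targets were higher in smaller number: 0 of 22 passed in limma, 6 were higher and 0 lower at an unadjusted p under 0.05, beside 2.66% and 3.72% of all genes, and the median was 0.15. Besides Ces2c and Abcb1a, this count held Gsta3, a glutathione transferase that read 10.65, 10.02 and 9.83 against 10.92, 10.80 and 11.06 from a vehicle mean of 7.97, and Abcc3, a conjugate export pump that read 9.55, 8.90 and 9.26 against 9.72, 9.69 and 10.59 from 6.58. Abcc3 and Aldh1a1 of this count were also among the higher NRF2 targets, so the counts of these lists are not separate. Gsta3, Abcc3, Aldh1a1 and the PPARalpha and growth genes below other than Ehhadh and Myc were named after their values were seen. Against vehicle, 11 of the 22 rose at 527.1 mg/kg, beside 1.96% of all genes, and 14 at 1054.2 mg/kg, beside 2.69%, by limma.

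PPARalpha targets numbered 40, of which 0 passed in limma, 8 were higher and 1 lower at an unadjusted p under 0.05, beside 2.66% and 3.72% of all genes, and the median was 0.13. Ehhadh, the peroxisomal bifunctional enzyme of fatty acid oxidation, read 11.59, 11.74 and 11.64 at 527.1 mg/kg and 12.19, 12.41 and 12.30 at 1054.2 mg/kg. These groups were well apart, a difference of 0.64 ± 0.18 (SE) with a limma adjusted p of 0.483, and the vehicle mean of 11.84 lay between them. Cyp4a1, a fatty acid hydroxylase, read 11.47, 11.07 and 11.60 against 11.83, 11.89 and 11.63 and a vehicle mean of 11.83. Plin2, which coats lipid droplets, was the 1 lower member, at -0.48 with overlap. The count of higher members ranged from 3 to 11 as each compared rat was left out, with 3 without replicate 3 of 1054.2 mg/kg, 4 without replicate 2 of either dose, 5 without replicate 1 of 527.1 mg/kg and 11 without replicate 1 of 1054.2 mg/kg.

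Fatty acid synthesis genes differed from gene to gene, with 1 of 24 higher (2.66% of all genes) and 3 lower (3.72%) at an unadjusted p under 0.05 and a median of -0.03. Beside Elovl6, the desaturase Scd, named after its values were seen, read 8.04, 10.00 and 10.48 at 527.1 mg/kg and 8.10, 7.17 and 6.91 at 1054.2 mg/kg, a difference of -2.11 ± 0.54 (SE) with a limma adjusted p of 0.383. Replicate 1 of 527.1 mg/kg was as low as the highest rat of the other group. Sterol synthesis genes had a median of 0.23, with 2 of 20 higher (2.66% of all genes) and 1 lower (3.72%) at that p. The lower one, the regulator Srebf2, read 9.90, 9.64 and 9.81 against 9.54, 9.38 and 9.52. The higher sterol synthesis genes at that threshold were 0, 7, 0, 5, 0 and 1 of 20 without replicates 1, 2 and 3 of 527.1 mg/kg and then 1, 2 and 3 of 1054.2 mg/kg.

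Growth control and immediate early genes gave 7 of 28 higher and 1 lower at an unadjusted p under 0.05, beside 2.66% and 3.72% of all genes, and a median of 0.13, with 0 past the limma threshold. Myc, a transcription factor of cell growth, read 7.95, 8.0 and 7.77 at 527.1 mg/kg and 8.64, 9.31 and 9.54 at 1054.2 mg/kg, a difference of 1.26 ± 0.27 (SE) with a limma adjusted p of 0.178. Every rat at the higher dose exceeded every rat at the lower. Cdkn1a, the p21 inhibitor of cyclin-dependent kinases, was the lower member, at 8.98, 8.91 and 8.84 against 8.23, 8.20 and 8.08 from a vehicle mean of 10.31. The count of 7 became 2 without replicate 1 of 527.1 mg/kg and to 3 without replicate 3 of 1054.2 mg/kg. In the clock list, Npas2 apart, 2 of 19 were higher and 2 more lower at that unadjusted p (2.66% and 3.72% of all genes). Among these, named after their values were seen, Bmal1, the partner of Npas2, read 7.15, 7.63 and 7.27 against 7.22, 6.99 and 6.38, and Nr1d1, its repressor, 8.99, 8.81 and 9.38 against 8.65, 8.44 and 8.19.

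Genes whose liver level differs between the sexes under the pattern of growth hormone included some of the wider gaps. Of 10 female-predominant genes 4 were higher and 0 lower at an unadjusted p under 0.05, beside 2.66% and 3.72% of all genes. Of these 4, Cux2 averaged 5.33 and 6.11, and Sult2a2 3.94 and 4.56 with overlap, both under the level that removes dim probe sets. Trim24 averaged 7.06 and 7.92, also with overlap, a difference of 0.86 with a limma adjusted p of 0.599. Cyp2c12 and Cyp3a9 of the same list differed by -0.47 and -0.15, with overlap. These members were named after their values were seen. Prlr, the prolactin receptor, read 7.63, 8.18 and 7.75 at 527.1 mg/kg and 8.90, 8.93 and 8.84 at 1054.2 mg/kg, a difference of 1.04 ± 0.23 (SE) with a limma adjusted p of 0.198, and its other probe sets differed by 1.46 and 0.91. Of 13 male-predominant genes Akr1b7, which that list holds, was higher and 3 were lower at that unadjusted p, beside the same shares of all genes. Those 3, named after their values were seen, were the cytochrome Cyp2c11, at 13.83, 13.97 and 14.16 against 13.49, 13.51 and 13.35, Obp3 at a difference of -1.10 and Stac3 at -1.63. None of the 3 overlapped between the doses, beside 6.70% of all genes lower without overlap. Hsd3b5 of that list was also lower without overlap, by only -0.07. None of the 3 passed, the smallest limma adjusted p being 0.171 for Cyp2c11.

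Interferon response genes gave 7 of 25 lower and 0 higher at an unadjusted p under 0.05, beside 3.72% and 2.66% of all genes, and a median of -0.26, with 0 past the limma threshold. Irf7, the regulator of type I interferon genes, read 9.30, 9.78 and 9.93 at 527.1 mg/kg and 8.78, 9.30 and 8.95 at 1054.2 mg/kg, a difference of -0.66 ± 0.17 (SE) with a limma adjusted p of 0.417. The groups met at 9.30, and without overlap 2 members of the list lay lower (6.70% of all genes) and 1 higher (4.00%), which is near those shares. Averaged over the list the rats stood at 0.13, 0.51 and 0.39 from vehicle at 527.1 mg/kg and at -0.05, 0.20 and -0.04 at 1054.2 mg/kg. The 7 became 3 without replicate 2 of 527.1 mg/kg or replicate 3 of 1054.2 mg/kg, and 4 without replicate 1 of 1054.2 mg/kg.

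Markers of the liver's cell types were compared as well, and fewer cells of a type and less RNA per cell cannot be told apart in whole tissue. Hepatocyte markers had a median level of 14.2 at 527.1 mg/kg and 14.3 at 1054.2 mg/kg, the 99.8th percentile of probe sets, and a median difference of -0.03, with 0 of 11 at an unadjusted p under 0.05. All 12 Kupffer cell markers were lower, with a median of -0.19, beside -0.01 over all genes. At an unadjusted p under 0.05 this held for 1 (3.72% of all genes), Cd5l, at 10.18, 10.46 and 10.68 against 10.03, 10.19 and 10.04. Stellate cell markers had a median of -0.19 and 3 of 19 lower at that p, beside 3.72% of all genes. Averaged over the list they stood from -0.51 to -0.32 of vehicle at 527.1 mg/kg and from -0.58 to -0.47 at 1054.2 mg/kg. The part of these differences in the interferon values was not tested.

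Several lists showed small differences of 1 sign. All members were read in the same 6 rats, so a count of members of 1 sign is no count of independent results. Of 29 ribosome biogenesis genes 28 were higher, with a median of 0.13, beside -0.01 over all genes, and 1 at an unadjusted p under 0.05. That p was met by 2.66% of all genes higher and 3.72% lower. Of 30 proteasome subunits 26 were higher, with a median of 0.13 and 0 at that p. Respiratory chain subunits had a median of -0.01 and endoplasmic reticulum folding genes -0.04. Of 24 genes that led the differences from vehicle in earlier results of these data, and so were chosen on these rats, Akr1b7 rose and Dhrs7l1 fell past the limma threshold between the 2 doses. At an unadjusted p under 0.05, 6 were higher and 7 lower, beside 2.66% and 3.72% of all genes. Because the choice used the same arrays, these counts only describe the 24 genes and test nothing about the doubling. Among the rest of them, named after their values were seen, Dbp, a clock output factor, averaged 9.26 and 9.41 at the 2 doses from 5.96 in vehicle. Akr7a3, an aflatoxin aldehyde reductase, averaged 13.2 and 13.3 from 11.4, and Egr1, an immediate early factor, 7.91 and 7.94 from 10.0. All 3 overlapped between the doses.

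**Figure D5:**
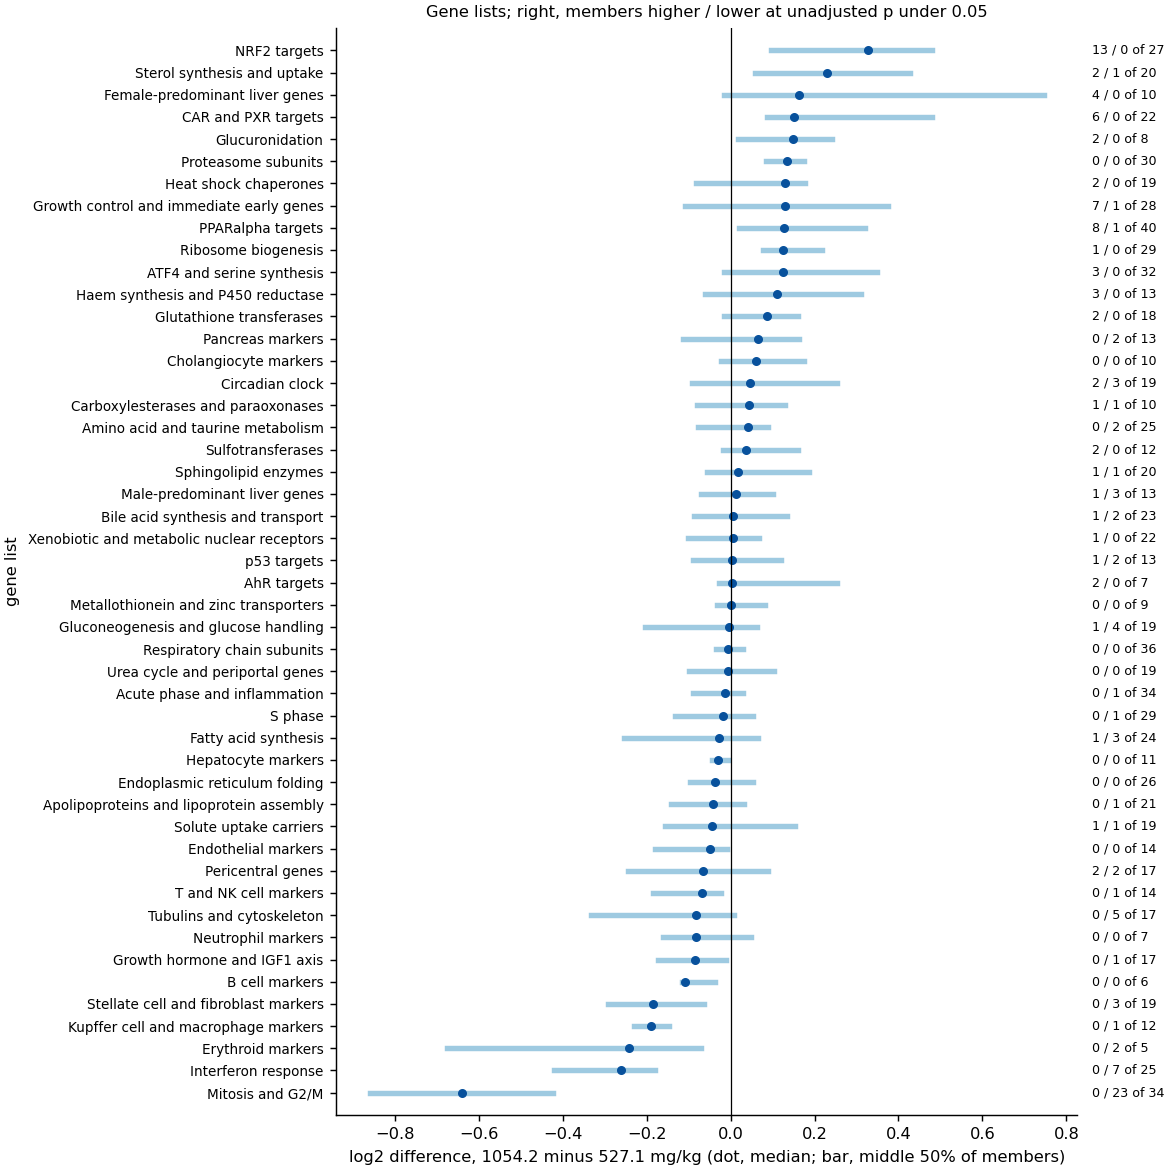
For each gene list the dot is the median log2 difference of 1054.2 minus 527.1 mg/kg and the bar the middle 50% of members, with the number higher and lower at an unadjusted limma p under 0.05 on the right. NRF2 targets lie at the top at 0.33 and mitosis and G2/M genes at the bottom at -0.64.

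Quality measures lay close together at the 2 doses. The median level ran from 6.33 to 6.40 over the 6 arrays, and the gap between 3′ and 5′ control probe sets for actin and Gapdh, which grows as RNA degrades, was 1.69 ± 0.10 (SD, n = 3) at 527.1 mg/kg and 1.68 ± 0.11 (SD, n = 3) at 1054.2 mg/kg. Arrays of the same dose correlated at 0.987 to 0.994 over probe sets and arrays of the 2 doses at 0.986 to 0.994. The number of arrays limits the precision: the median SE of a difference was 0.13.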

How the data were processed

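The values are log2 expression levels per probe set that the authors deposited as 1 table of 31099 probe sets by 20 arrays. Per the submitters' processing notes they were made with RMA, and its version is not given in the sources used here. Of these, 57 control probe sets were left out. A platform annotation gave 1 symbol to 20826 of 31042 probe sets, several to 436 and none to 9780. A linear model with 1 mean per dose was fitted to all 20 arrays in limma 3.58.1 (R 4.3.3), with eBayes, two-sided tests and Benjamini-Hochberg adjustment over 31042 probe sets at 0.05. Gene lists (49, with 857 genes measured, 76 of them in more than 1 list) used the brightest probe set of each gene. They, the comparison and the tests were chosen with earlier results of these data known. Named genes were those past the threshold without overlap between the doses, filled to 10 in each direction by smallest p among differences of at least 1.5-fold, and the member of smallest p in a list. In data simulated for 1054.2 against 527.1 mg/kg over 31042 probe sets, 47.8% of added log2 differences of 0.5 were recovered, 97% of 1 and 100% of 2. That simulation added differences to 67, 67 and 66 probe sets, more than the 4 that passed here, so its shares need not carry over. In the real data Myc at 1.26 and Npas2 at -1.64 did not pass, while Akr1b7 at 2.09 and Dhrs7l1 at -2.25 did. Alternatives covered normalization, dim probe sets, the prior, weights, a replicate block, RNA quality and each compared rat left out. Promoters came from a RefSeq table.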

Additional observations from a re-analysis of the deposited data

Results flagged for a closer look

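Among the 20 named genes, 1 had a vehicle rat set apart from the other 4. Pttg1, the securin of chromosome separation, stood at 7.77 in vehicle replicate 5, against 7.35 to 7.46 in the others, a gap of 0.742 of the whole range where 0.71 is the limit for 5 samples. Such a gap arises by chance in about 1 group in 20. The vehicle arrays enter the test of the 2 highest doses only through the shared estimate of spread. This rat is also the upper end of the vehicle range of Pttg1. The placing of Pttg1 within that range at 1054.2 mg/kg therefore depends on it.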

How the results depend on the processing

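The 4 probe sets past the threshold became 0 with the 6 compared arrays fitted alone, 2 with dim probe sets left out, 7 with an intensity trend in the prior, 8 with the 3′ minus 5′ difference as covariate and 656 (302 higher, 354 lower) with array weights, and leaving out each compared rat gave 1 to 8. Array weights rest largely on replicate 3 of 1054.2 mg/kg. Fitting 1 probe set per gene, centring medians and repeating quantile normalization each gave 5. With a replicate block 1 passed, Akr1b7, and Dhrs7l1 and Srxn1 had an adjusted limma p of 0.0689. Rats with the same number deviated together with r of 0.31, 0.08 and 0.00, and those with different numbers from -0.28 to 0.25. With 3 rats per dose these values cannot decide whether the numbers pair the rats. For 527.1 against 263.6 mg/kg the count of 0 became 2 with 1 probe set per gene and 0 to 2 with rats left out. For the change of slope at 527.1 mg/kg it became 1 with quantile normalization, 6 with array weights, 1 with the RNA covariate and 0 to 1 with rats left out. The causes of these changes were not tested. Blk turned to 0.069 with array weights, and the median of pancreas markers, 0.065, ran from -0.022 to 0.14 with rats left out, below 0 without replicate 1 of 527.1 mg/kg (-0.0080) or of 1054.2 mg/kg. Of 958 values for 61 single genes, 895 kept direction and side of the threshold, 13 lost the threshold and 49 gained it. Of 784 list medians 755 moved by less than the spread between rats.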

Other observations

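Ephx2, the soluble epoxide hydrolase, split the rats at 1054.2 mg/kg and was named after its values were seen. It read 7.03 in replicate 1, 10.4 in replicate 2 and 9.80 in replicate 3, while the other 18 arrays of the series, replicate 1 included, ran from 6.96 to 7.99. With all rats the difference from 527.1 mg/kg was 2.03 ± 0.49 (SE) with a limma adjusted p of 0.311. The rats are an outbred stock, and whether their sequences differ under these probes was not tested. Pxmp4, a peroxisomal membrane protein, read 10.97, 11.37 and 11.07 in its brighter probe set at 1054.2 mg/kg, and the vehicle rats ran from 8.61 to 11.68. Tsku, a secreted liver protein, read 10.90, 10.55 and 11.30 at 1054.2 mg/kg against a mean of 9.25 at 527.1 mg/kg, a difference of 1.67 with a limma adjusted p of 0.536. Both were named after their values were seen.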
